A study of Homo sapiens with 5 samples.

Results

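The E2F transcription factors and the pocket proteins that bind them were followed in a leukemia line treated with an inhibitor of the kinase GSK-3. The genes were 7 E2F genes (E2F1, E2F2, E2F3, E2F4, E2F6, E2F7 and E2F8) and 3 pocket protein genes (RB1, RBL1 and RBL2). They were taken by name, through the array probes annotated with exactly 1 gene symbol; each of the 10 had a single such probe, among 18417 genes named in this way. RS4.11, also written RS4;11, is an established human leukemia line in which the MLL gene is rearranged. Of the 5 arrays, 3 held RNA of cells given SB216763, a small-molecule GSK-3 inhibitor, at 10 uM for 20 h, and the other 2 held RNA of control cells, given only DMSO, the solvent, for 20 h. Both groups are the same line with no other agent named in the labels. The labels do not say whether each array had a culture of its own, so a p-value here speaks only for the spread among these 5 arrays, and that spread may be technical.

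E2F factors switch on the genes a cell needs to enter S phase. In G1 the pocket proteins hold them in check, until cyclin-dependent kinases phosphorylate the pocket proteins and release the factors. E2F1, E2F2 and E2F3 are the activators; E2F4 works mainly with RBL1 and RBL2 as a repressor in resting cells; E2F6 represses within a Polycomb-type complex without a pocket protein. E2F7 and E2F8, the atypical members, bind DNA without a DP partner and shut the same genes down again later in S phase. Several of these genes, E2F1, E2F2, E2F7, E2F8 and RBL1 among them, are themselves known targets of E2F, so the family forms a loop.

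The promoters of the group were searched for the letters of E2F motifs. Shown are the 150 bases before the annotated start of 6 of the genes (RefSeq, GRCh38.p14), chosen because 4 of them hold the letters of an E2F motif, E2F7 was among the genes that fell, and E2F4 stands for those without a match. Capitals mark the core, on either strand, of the E2F motif TTTCCCGC, TTTCGCGC, TTTGCCGC or TTTGGCGC, that is, the motif without its leading T. The regions are chr20:33686386-33686535 on the minus strand for E2F1, chr1:23531234-23531383 on the minus strand for E2F2, chr6:20401729-20401878 on the plus strand for E2F3, chr12:77065570-77065719 on the minus strand for E2F7, chr20:37095998-37096147 on the minus strand for RBL1 and chr16:67192005-67192154 on the plus strand for E2F4.
E2F1: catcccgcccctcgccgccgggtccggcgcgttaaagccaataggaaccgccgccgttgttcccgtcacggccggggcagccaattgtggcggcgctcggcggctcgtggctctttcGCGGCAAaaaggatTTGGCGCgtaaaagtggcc
E2F2: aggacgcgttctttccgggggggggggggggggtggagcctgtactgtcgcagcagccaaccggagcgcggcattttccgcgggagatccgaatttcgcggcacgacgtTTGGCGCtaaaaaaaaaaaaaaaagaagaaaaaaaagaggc
E2F3: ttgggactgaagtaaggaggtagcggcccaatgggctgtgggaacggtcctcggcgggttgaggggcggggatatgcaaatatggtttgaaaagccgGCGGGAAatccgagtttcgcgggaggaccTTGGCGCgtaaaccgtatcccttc
E2F7: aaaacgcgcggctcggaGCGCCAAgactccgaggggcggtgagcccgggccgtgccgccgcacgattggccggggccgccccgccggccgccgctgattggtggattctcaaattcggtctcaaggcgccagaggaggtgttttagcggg
RBL1: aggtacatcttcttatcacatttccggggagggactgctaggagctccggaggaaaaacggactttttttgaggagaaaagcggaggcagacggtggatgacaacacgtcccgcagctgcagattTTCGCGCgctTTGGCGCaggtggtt
E2F4: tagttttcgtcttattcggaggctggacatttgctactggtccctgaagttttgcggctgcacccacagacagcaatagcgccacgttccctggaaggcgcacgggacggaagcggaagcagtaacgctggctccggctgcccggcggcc
Searched over the whole window of 250 bases before to 50 after the start, on both strands, the full motif, each form of which contains the core, was found in E2F1, E2F2, E2F3 and RBL1. These are 4 of the 9 genes of the group with an entry in the promoter table, where 5.51% of the 14239 tested genes with an entry held it. E2F1 had the full motif at -33 and -20 and RBL1 at -26 and -16, counted from the start to the leftmost base of the match, while E2F2 had 1 match, at -42, and E2F3 had 1, at -53. The core was found in 6 of the 9 genes, against 21.0% of tested genes. E2F7 had it at -176 and -133 and, beside it, 4 matches to CCAAT, a motif bound by NF-Y, between -229 and -54. CCAAT stood in 4 of the 9 genes, E2F1 and E2F3 among them, where 42.2% of tested genes held it. E2F4 and RBL2 held neither form of the E2F motif. The entry listed for RB1 lay inside the gene, 172699 bases after its annotated start, so it does not describe the main promoter. A match is only a run of letters and does not show that a factor binds there. The motifs were chosen after the promoters were seen, so setting these shares beside those of all tested genes is a description and not a test.

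The arrays were alike in level. Their median log2 values lay between 6.77 and 6.84. Pearson correlations across genes were 0.9946 to 0.9975 among SB216763 arrays, 0.9967 between the control arrays and 0.9887 to 0.9903 between arrays of different groups, where genes are not independent replicates. Background, the 95th percentile of 341 olfactory receptor genes, was 5.98 to 6.15 on SB216763 arrays and 6.17 to 6.19 on control arrays, and all 10 E2F and pocket protein genes were above it on all 5 arrays. The labels call the cells MLL leukemia, and RS4;11 is generally taken for a B cell precursor line. Of 7 measured B cell precursor markers, CD79B and PAX5 were above background on all 5 arrays and CD79A on 4, while VPREB1, CD22, RAG1 and DNTT were above it on none. Of 6 myeloid markers 6 were above background on every array, though MPO only narrowly, at 6.16 against 6.12 on SB216763 replicate 1. Of 7 T and NK cell markers only CD8A was above background on every array. Of 5 erythroid and megakaryocyte markers, EPOR, ITGA2B and KLF1 were above it on all 5 arrays and HBB and PF4 were not; none of the 5 passed the test. The summed log2 value of the 6 myeloid markers was 48.99 to 49.87 on SB216763 arrays and 48.34 to 48.56 on control arrays. Only 1 of the 6, the lysozyme gene LYZ, passed the test, with a rise of 0.78 (SE 0.09, limma adjusted p = 0.00274). ITGAM and CSF1R differed by 0.27 and 0.11, and MPO, ELANE and CD14 by -0.23, -0.05 and -0.0027. The higher sum therefore does not mean that the 6 myeloid markers rose as a set. The part of such cells in the results below was not tested. Fewer cells of a type and less RNA per cell cannot be told apart in such samples.

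With SB216763 the atypical repressors E2F7 and E2F8 and the activator E2F2 were lower, and no E2F or pocket protein gene was higher. The falls were 1.51-fold for E2F7, 1.59-fold for E2F2 and 1.70-fold for E2F8. The other 7 genes, among them all 3 pocket proteins and the repressor E2F4, did not pass the test. The test was limma on the log2 values of all 18417 genes, two-sided, its p-values adjusted by Benjamini-Hochberg across the whole table, with a threshold of 0.05, and a gene past it is said to have risen or fallen. So 3 of the 10 genes fell, where 5.92% of all genes tested did, and 0 of 10 rose, where 7.21% did; in an ordinary linear model without moderation 0 rose too. At an unadjusted limma p under 0.05, 5 of the 10 were lower, where 12.2% of all genes were, and 0 were higher, where 14.3% were. With each array centred on its median the split over all genes turned, with 40.6% of the calls upward instead of 54.9%. There 4 of the 10 genes were called lower, E2F1 beside the 3 above, where 1536 of all 18417 genes were, instead of 1090. The differences of the 10 genes had a median of -0.23 on the log2 scale, where the median over all genes was 0.0033. Without control replicate 2 the median of the 10 was -0.12, and without control replicate 1 it was -0.27. Every difference below is SB216763 minus control on that scale, with n = 3 and n = 2 arrays.

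All calls depend on having both control arrays. Without control replicate 1, and likewise without control replicate 2, limma called 0 of the 10 genes. Hardly any other gene was called there either: of all 18417, 1 was lower (0.00543%) and 0 higher without control replicate 1, and 0 (0%) in either direction without control replicate 2. With control replicate 1 left out, 5 of the 10 genes (E2F2, E2F3, E2F6, E2F7 and E2F8) were lower at an unadjusted p under 0.05, where 10.3% of all genes were. With control replicate 2 left out, 3 were (E2F2, E2F7 and E2F8), where 8.98% of all genes were. Every call in the gene lists further on was lost in the same way. In the ordinary linear model without moderation those lists kept fewer calls, and over all 18417 genes 125 fell. There 9 of 41 direct G1/S targets fell, as did 1 of 3 DP, 1 of 7 MuvB and 1 of 10 corepressor genes.

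**Figure D1:**
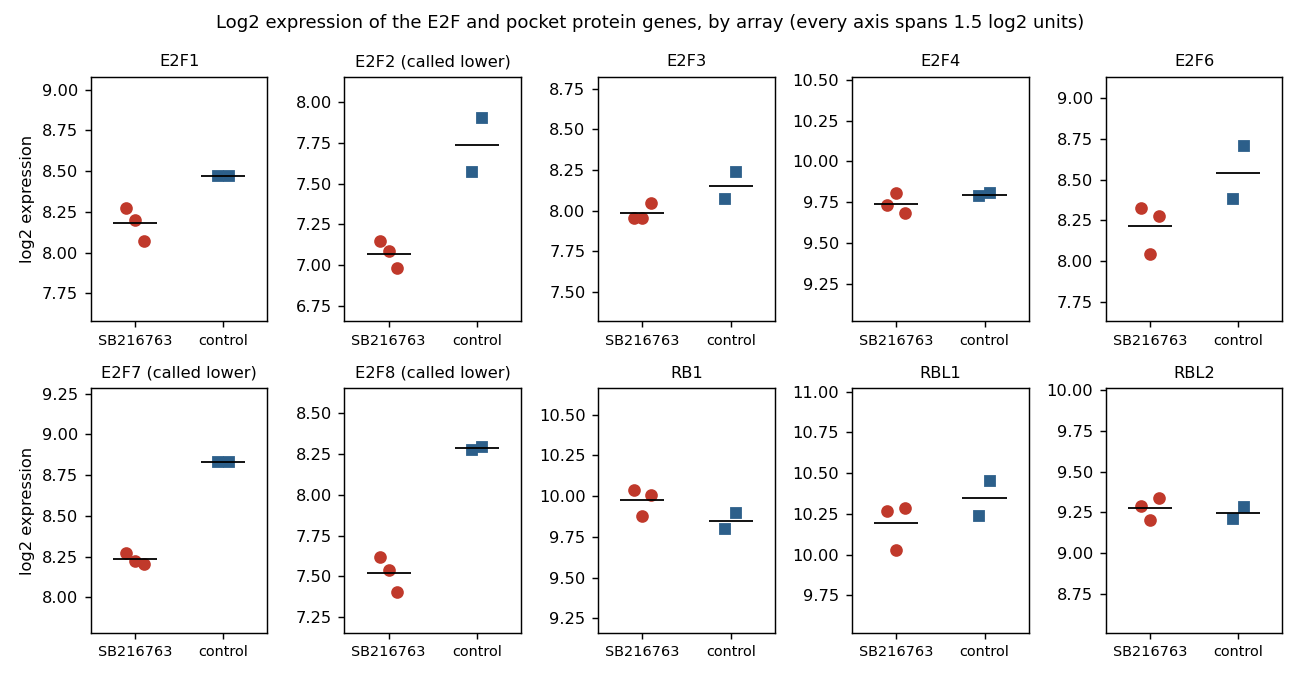
Log2 expression on each array for the 10 E2F and pocket protein genes; red circles are the 3 SB216763 arrays, blue squares the 2 control arrays, and black lines the group means. Each vertical axis spans 1.5 log2 units around its own gene, so heights compare within a panel only. The groups are apart for E2F2, E2F7 and E2F8 by more than either group's own range, and they overlap for E2F4, RB1, RBL1 and RBL2.

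Among the activators, E2F1, the founding member of the family, read 8.28, 8.20 and 8.07 on SB216763 arrays and 8.47 and 8.47 on control arrays. The SB216763 values all lay below the control values. The difference was -0.29 (SE 0.09, 95% interval -0.49 to -0.08), with an unadjusted p of 0.0120 and an adjusted p of 0.0742 by limma, so E2F1 did not pass. It did pass in 3 of the other settings, with the dim genes left out, with each array centred on its median, and with a variance trend and robust settings (adjusted p from 0.0388 to 0.0466).

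E2F2, which overlaps with E2F1 and E2F3 in driving S-phase entry, read 7.15, 7.09 and 6.98 on SB216763 arrays and 7.57 and 7.90 on control arrays. The groups did not overlap, and the control arrays were further from each other, by 0.33, than the SB216763 arrays were. The mean was 7.07 ± 0.08 with SB216763 (SD, n = 3) and 7.74 ± 0.23 in control cells (SD, n = 2). The difference was -0.67 (SE 0.11, adjusted p = 0.00950 by limma), and it ran from -0.83 without control replicate 1 to -0.50 without control replicate 2. In an ordinary linear model without moderation its adjusted p was 0.140.

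E2F3, whose alternative first exons give an activator and a shorter form that the probe does not separate here, read 7.96, 7.95 and 8.05 with SB216763 and 8.07 and 8.24 in control cells. The highest SB216763 array lay only 0.02 below the lowest control array. The difference of -0.17 had a 95% interval of -0.37 to 0.04 (adjusted p = 0.278 by limma), so a fall of up to 0.37 is within what these arrays allow. It was -0.25 without control replicate 1 and -0.08 without control replicate 2.

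Among the repressors, E2F4, the most abundant pocket protein partner in resting cells, read 9.73, 9.80 and 9.68 with SB216763 and 9.79 and 9.81 in control cells. The groups overlapped. Its difference was -0.06 with a 95% interval of -0.24 to 0.13 (adjusted p = 0.722 by limma). E2F6, the Polycomb-associated repressor, read 8.33, 8.04 and 8.28 with SB216763 and 8.38 and 8.70 in control cells. All SB216763 values were below the control values, but the control arrays differed from each other by 0.32, about as much as the groups did. Its difference of -0.33 had a 95% interval of -0.62 to -0.03 and an unadjusted p of 0.0347, and it did not pass (adjusted p = 0.148 by limma). It was -0.49 without control replicate 1 and -0.16 without control replicate 2.

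The atypical repressors gave the clearest separation in the group. E2F7 read 8.27, 8.22 and 8.20 with SB216763 and 8.83 and 8.83 in control cells, so the nearest arrays of the groups were 0.56 apart. The mean was 8.23 ± 0.04 with SB216763 (SD, n = 3) and 8.83 ± 0.0018 in control cells (SD, n = 2), a difference of -0.60 (SE 0.08, adjusted p = 0.00312 by limma). E2F8 read 7.62, 7.54 and 7.40 with SB216763 and 8.27 and 8.30 in control cells. Its nearest arrays were 0.66 apart, more than 3 times the span of the SB216763 arrays. The mean was 7.52 ± 0.11 with SB216763 (SD, n = 3) and 8.28 ± 0.01 in control cells (SD, n = 2), a difference of -0.76 (SE 0.09, adjusted p = 0.00243 by limma). Whichever array was left out, the difference of E2F7 stayed between -0.62 and -0.58 and that of E2F8 between -0.81 and -0.70. In the ordinary linear model E2F7 was still called, while E2F8 had an adjusted p of 0.0686.

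The pocket protein genes overlapped between the groups. RB1, the retinoblastoma gene, read 10.04, 9.88 and 10.01 with SB216763 and 9.80 and 9.90 in control cells. Its difference was 0.13, with a 95% interval of -0.07 to 0.33 (adjusted p = 0.423 by limma). RBL1, which encodes p107 and is the pocket protein gene best known as an E2F target, read 10.27, 10.03 and 10.28 with SB216763 and 10.24 and 10.45 in control cells. Its difference was -0.15, with a 95% interval of -0.41 to 0.11 (adjusted p = 0.462 by limma), and it was -0.26 without control replicate 1 and -0.04 without control replicate 2. SB216763 replicate 2 was the lowest of the 5 arrays for RBL1. RBL2, which encodes p130, the pocket protein of resting cells, read 9.29, 9.20 and 9.34 with SB216763 and 9.21 and 9.28 in control cells. Its difference was 0.03, with a 95% interval of -0.16 to 0.22 (adjusted p = 0.859 by limma). The widest of these intervals, that of RBL1, leaves room for a fall of up to 0.41, so equal expression is not shown. Regulation of these proteins by phosphorylation would not be seen in RNA.

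**Figure D2:**
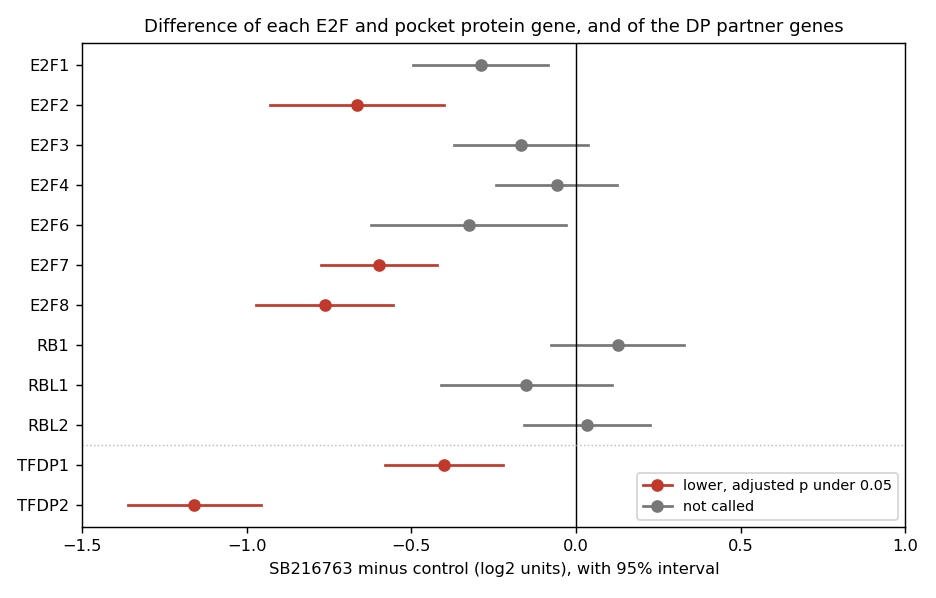
SB216763 minus control in log2 units for the 10 genes and, under the dotted line, for the DP partner genes TFDP1 and TFDP2; bars are 95% intervals of limma's moderated fit, red where the adjusted p was under 0.05. E2F2, E2F7, E2F8, TFDP1 and TFDP2 lie to the left of 0, and the intervals of E2F3, E2F4 and the pocket proteins cover 0.

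Counted by overlap of the arrays, all SB216763 values were below all control values for 6 of the 10 genes (E2F1, E2F2, E2F3, E2F6, E2F7 and E2F8), where this held for 19.9% of all genes tested. All SB216763 values were above for 0 of the 10, where this held for 21.6%. The arrays therefore placed 6 of the 7 E2F genes on the low side, E2F4 being the exception, and the 3 pocket protein genes on neither side. Whether the E2F genes differ from the pocket protein genes in their response was not tested.

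**Figure D3:**
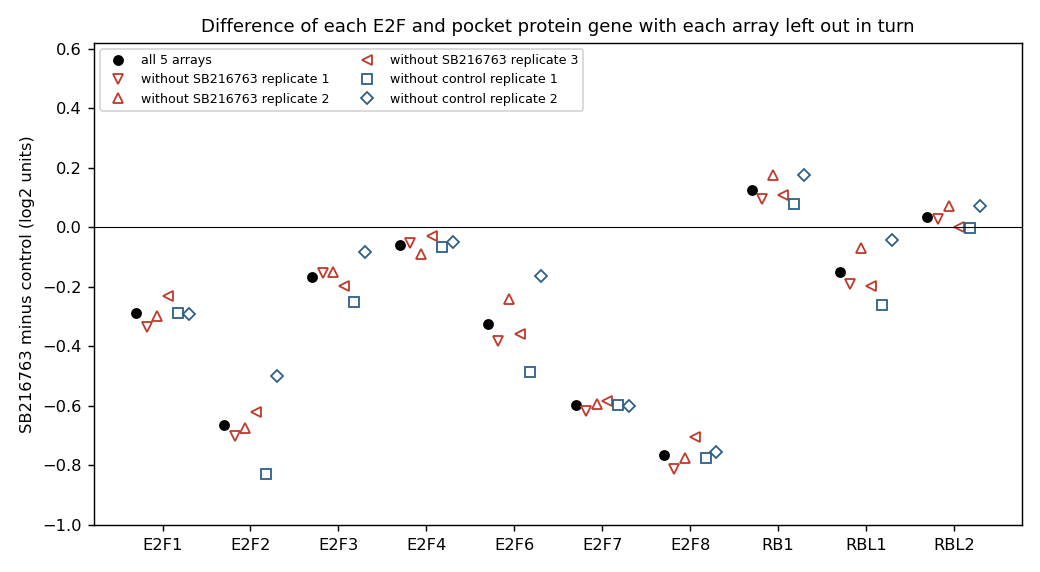
SB216763 minus control in log2 units for each of the 10 genes with all 5 arrays (black) and with each array left out in turn (open red symbols for SB216763 arrays, open blue symbols for control arrays). E2F7 and E2F8 hardly move, E2F2, E2F3, E2F6 and RBL1 shift with the control array left out, and RBL2 lies next to 0 throughout.

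The profiles nearest to E2F8 over the 5 arrays, by Euclidean distance of log2 values centred on each gene's mean, were those of RRP12, CDCA4 and PREB, at distances of 0.101, 0.104 and 0.122. Their own differences were -0.73, -0.74 and -0.68. For RB1, the nearest were NAPA, LCORL and YWHAZ, at 0.0153, 0.0244 and 0.0284, and none of these 3 passed the test (adjusted p from 0.392 to 0.476 by limma). With 5 arrays and 18417 genes such neighbours are a description only.

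For the gene lists that follow, the shares over all genes tested were those given above: 5.92% fell and 7.21% rose, and 12.2% were lower and 14.3% higher at an unadjusted p under 0.05. The DP proteins pair with E2F1 to E2F6 to bind DNA. TFDP2 read 7.23, 7.23 and 7.06 with SB216763 and 8.31 and 8.36 in control cells. Its groups were 1.08 apart at their nearest arrays, and the difference of -1.16 (SE 0.09, adjusted p = 0.000588 by limma) was larger than that of any of the 7 E2F genes. TFDP1, the main partner in most cells, read 11.36, 11.35 and 11.43 with SB216763 and 11.76 and 11.81 in control cells, a difference of -0.40 (SE 0.08, adjusted p = 0.0145 by limma). Its call was lost without SB216763 replicate 1 (adjusted p = 0.0776 by limma). TFDP3, another DP gene, was above background on no array and did not pass (adjusted p = 0.106 by limma).

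MuvB is the core that joins RBL2 and E2F4 in resting cells and MYBL2 and FOXM1 in dividing ones. Of 7 measured genes, 3 fell and 0 rose (0 also at an unadjusted p under 0.05), and the median difference was -0.15. MYBL2, the B-MYB gene and a classic E2F target, averaged 9.70 ± 0.02 with SB216763 (SD, n = 3) and 10.47 ± 0.10 in control cells (SD, n = 2), a difference of -0.77 (SE 0.08). FOXM1, the G2/M activator, differed by -0.46 (SE 0.08) and the core subunit LIN9 by -0.39 (SE 0.09). LIN37, LIN52, LIN54 and RBBP4 differed by 0.19, -0.02, -0.15 and 0.11 and did not pass.

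Around E2F6, 2 of 10 measured genes of its complex fell, L3MBTL2, a reader of histone methylation, by 0.46 (SE 0.10) and the scaffold WDR5 by 0.31 (SE 0.08), and 0 rose (0 at an unadjusted p under 0.05). At an unadjusted p under 0.05, 4 of the 10 were lower, where 12.2% of all genes were. The count of those that fell was 0 with either SB216763 replicate 1 or SB216763 replicate 3 left out, where 453 and 798 of all 18417 genes fell. It was 4 with each array centred on its median, where 1536 of all 18417 fell. MGA and PCGF6, which define this complex, differed by 0.17 and -0.32 and did not pass. Of 7 germ line genes known from mouse as targets of E2F6, limma called 0, with 1 lower (TEX101) and 1 higher (HORMAD1) at an unadjusted p under 0.05 and 0 in the ordinary linear model, while with array weights both were called. Array weights, here and below, lean on SB216763 replicate 1 (weight 8.54, against 0.312 and 0.654 for SB216763 replicates 2 and 3). With them 2152 of all 18417 genes fell and 2568 rose. Of the 7 germ line genes, 5 were above background on no array, TEX101 among them. HORMAD1, a meiotic chromosome protein, stood well above background in both groups, at 10.41, 10.26 and 10.50 with SB216763 and 10.17 and 10.17 in control cells.

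Of 10 measured corepressors that pocket proteins recruit, 1 fell: SUV39H1, the histone H3 lysine 9 methyltransferase, by 0.60 (SE 0.08). That count is close to the 5.92% of all genes that fell, and 0 of the 10 rose, where 7.21% of all genes did. The histone deacetylases HDAC1 and HDAC2 differed by 0.02 and -0.07 and did not pass, and the median difference was -0.03, or 0.01 without SB216763 replicate 2. With array weights 3 of the 10 fell and 1, ARID4B, rose, where 2152 of all 18417 genes fell and 2568 rose. ARID4B was also called higher without SB216763 replicate 2, where 1680 of all 18417 genes were. With all arrays ARID4B differed by 0.33 and did not pass (adjusted p = 0.190 by limma).

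Of 12 genes of the kinases that phosphorylate pocket proteins, of their cyclins and of the CDK7 complex, 4 fell and 0 rose. At an unadjusted p under 0.05, 8 were lower and 0 higher, and the median was -0.34. The CDK7 complex genes CDK7, CCNH and MNAT1 differed by 0.16, 0.02 and 0.19 and did not pass. Cyclin A, CCNA2, fell by 0.82 (SE 0.11), CDK2 by 0.63 (SE 0.11), cyclin E1, CCNE1, by 0.57 (SE 0.08) and cyclin D3, CCND3, by 0.42 (SE 0.08). The D cyclin partners CDK4 and CDK6 differed by -0.29 and -0.34 and did not pass (adjusted p = 0.0661 and 0.0522 by limma). The count of the 12 that fell was 8 with array weights, where 2152 of all 18417 genes fell. It was 7 with the dim genes left out, where 1398 of 12856 genes fell. With each array centred on its median it was also 7, where 1536 of 18417 fell. Of 6 CDK inhibitor genes, CDKN1B, which encodes p27, fell by 0.51 (SE 0.10), a call that was lost without SB216763 replicate 1, and 0 rose (1, CDKN1C, at an unadjusted p under 0.05).

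Genes known as direct E2F targets at the G1/S boundary were lower almost throughout. Of 41 measured, 34 fell and 1 rose, and the median difference was -0.63, where 5.92% of all genes fell. This list, like the others, was chosen with earlier results of these data known, so its count is a description and not a test. UNG, the uracil glycosylase, read 7.96, 7.88 and 7.84 with SB216763 and 9.06 and 9.13 in control cells, a difference of -1.20 (SE 0.08, adjusted p = 0.000457 by limma). The replication factor CDC45 fell by 1.25 (SE 0.09), the phosphatase CDC25A by 1.10 (SE 0.08) and the helicase subunit MCM5 by 1.03 (SE 0.07). CDT1, the licensing factor, rose by 0.32 (SE 0.08, adjusted p = 0.0326 by limma). It was not called with each array centred on its median, with a replicate block or with all probes tested singly (limma adjusted p = 0.0539, 0.106 and 0.0689). Nor was it called in the ordinary linear model without moderation (adjusted p = 0.0668). The call was also lost with SB216763 replicate 1 or SB216763 replicate 3 left out (limma adjusted p = 0.130 and 0.0783). Of the 39 with an entry in the promoter table, 56.4% held the full E2F motif, where 12.3% of the genes that fell, 5.92% of those that rose and 5.51% of all tested genes did. The list was made of known E2F targets, so a high share was built in. The genes that fell also include members of the list. With control replicate 1 left out 0 were called and 36 were lower at an unadjusted p under 0.05, and with control replicate 2 left out 0 were called and 35 were lower at that level.

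Of 25 G2/M genes bound by MuvB, 10 fell and 0 rose (0 at an unadjusted p under 0.05), and the median difference was -0.29. The spindle checkpoint kinases BUB1B and BUB1 fell by 0.70 (SE 0.08) and 0.59 (SE 0.08), and PRC1, which bundles the central spindle, by 0.53 (SE 0.08). CCNA2, given above, also stood in this list. The count was 5 without SB216763 replicate 1, where 453 of all 18417 genes fell. The promoter motif TTTGAA, the core of the cell cycle homology region, stood in 61.9% of the 21 with an entry, where 15.7% of all tested genes held it, and the full E2F motif in 9.52%. This list was made of genes with known binding, and the motif was chosen after the promoters were seen, so these shares are a description.

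Of 6 measured genes of apoptosis that E2F1 is known to induce, 3 fell, namely BCL2L11, which encodes BIM, by 0.50 (SE 0.08), PMAIP1, which encodes NOXA, by 0.50 (SE 0.08), and CASP8AP2 by 0.47 (SE 0.10). APAF1, the core of the apoptosome, differed by 0.21 and TP73 by -0.12, and neither passed. Of 8 genes that act in the turnover of E2F and pocket proteins, SKP2, the ubiquitin ligase subunit, fell by 0.52 (SE 0.08) and cyclin F, CCNF, which targets E2F activators for degradation, by 0.38 (SE 0.10). MDM2 differed by 0.33 and did not pass (adjusted p = 0.0598 by limma), but it was called higher in 5 other settings: dim genes left out, quantile normalization, a variance trend with robust settings, array weights, and SB216763 replicate 2 left out (adjusted p from 0.00606 to 0.0316). The count of 2 that fell was 1 when any 1 of the SB216763 arrays was left out. Over all 18417 genes 453, 1179 and 798 fell without SB216763 replicates 1, 2 and 3 in turn.

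**Figure D4:**
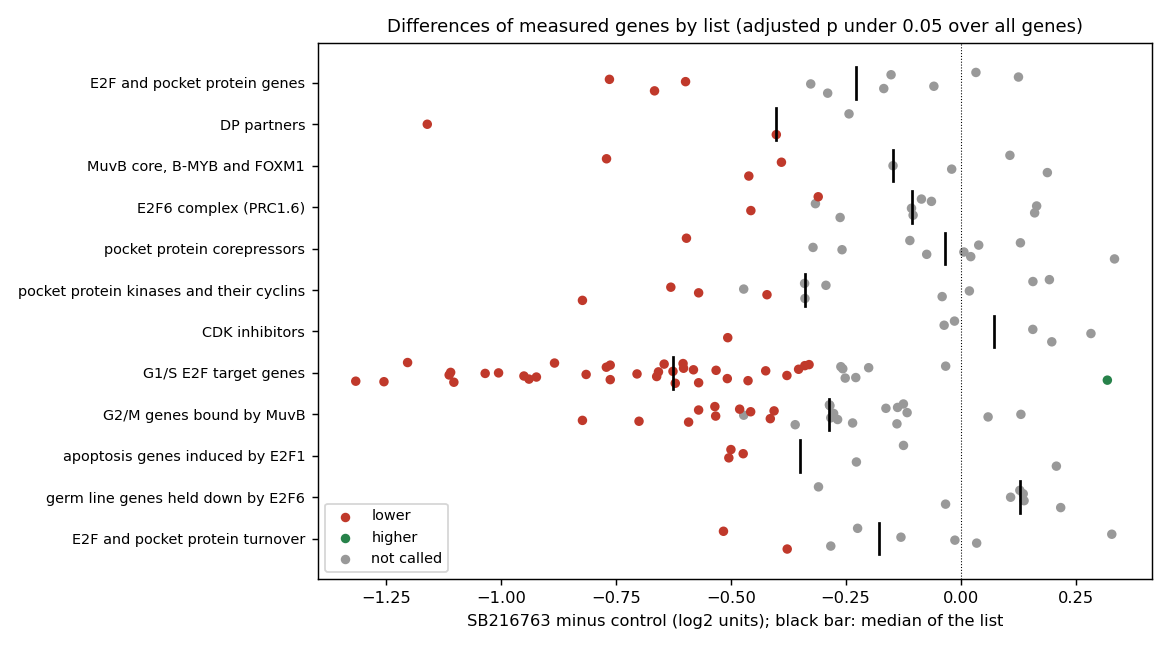
SB216763 minus control in log2 units for each measured gene of the family and of its pathway lists; red points fell, the green point rose, gray points did not pass, and black bars are list medians. The direct G1/S targets lie furthest to the left, with a median of -0.63, and the CDK inhibitors and germ line genes spread around 0.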

How the data were processed

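Affymetrix whole-transcript arrays measured total RNA of RS4.11 cells, 3 with SB216763 and 2 controls, grouped by the sample titles. The authors deposited 1 table of log2 expression values, made with Affymetrix Expression Console per the submitters' processing notes; that the values are log2 follows from their range of 1.95 to 14.84, while for the way probes were summarised and for the genome build no statement was found in the sources used here. No further normalization was applied. Of 33297 probes, 19460 had exactly 1 gene symbol in the platform annotation; per gene the probe with the highest mean was used, leaving 18417 genes. The comparison used lmFit and eBayes of limma 3.58.1 under R 4.3.3, with 7.62 total degrees of freedom and intervals at 95%. The fit was tested on simulated data with 200 changed genes and independent noise on each array. Such data cannot show how the fit behaves if these arrays do not come from separate cultures. Tables and figures used pandas 2.3.3 and matplotlib 3.10.9.

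The genes of the group and the lists were chosen with earlier results of these data known. All 10 genes are named; of lists of up to 12 genes any member, and of longer lists the 4 with the smallest p among those past the threshold in each direction. Promoter motifs, including the E2F core, were chosen after the promoters were seen. Listed genes that no probe named alone were not analysed here. Other settings tried were quantile normalization, centring, leaving out dim genes, averaging the probes of a gene, no moderation or a trended robust one, array weights, a replicate block, leaving out each array, and testing all probes singly. The number of arrays limits the precision.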

Additional observations from a re-analysis of the deposited data

How the results depend on the processing

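Over the 14 other settings, E2F7 was called in 12, E2F2 and E2F8 in 11 each and E2F1 in 3, and the other 6 genes in none. These settings are not all separate checks. Each of the 10 genes had 1 probe, so averaging probes or testing them singly left its difference unchanged. The replicate block gave each of the 10 the difference it had without SB216763 replicate 3. Without moderation 1 of the 10 genes fell (E2F7), with 125 lower and 126 higher over all genes. Array weights gave 2152 lower and 2568 higher. The weights were 8.54 for SB216763 replicate 1, 0.312 and 0.654 for SB216763 replicates 2 and 3, and 0.758 for each control array. Calls with array weights therefore take the SB216763 level mostly from 1 array. With an array left out, the number of the 10 that fell ran from 0 to 3, and over all genes 0 to 1179 were lower and 0 to 1680 higher, the lowest counts being those without either control array, where the lone control array is taken to vary as the SB216763 arrays do. The difference of RBL2, never called, was -0.0192 with each array centred on its median and ran from -0.00351 (without control replicate 1) to 0.0701 with an array left out. With the replicate number as a block 3 of the 10 fell, with 889 lower and 941 higher genes; same-numbered arrays did not deviate together (r = -0.0516 and -0.104 for numbers 1 and 2), so the numbers were not treated as pairs. The cause of these shifts was not tested.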
